A study of Mus musculus with 30 samples.

Results

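The 10 genes described here belong to the contractile apparatus of myofibroblasts and were followed across 9 groups of mouse tail fibroblast cultures. They were Acta2 and Actg2, the smooth muscle actins, Tpm1 and Tpm2, tropomyosins, Tagln and Cnn1, actin-binding proteins of smooth muscle, Myl9 and Myh11, a light and a heavy chain of smooth muscle myosin, Vcl, which encodes vinculin, and Srf, which encodes a transcription factor. They were picked by symbol, as 10 of the 29861 genes in the deposited table, and each symbol matched 1 gene. Acta2 was chosen because of its low level after Cardamonin and Podofilox, so all values of the 10 genes in those 2 comparisons are given as a description, with no test.

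All cultures were of CCG-HTA-1, a primary tail fibroblast line from UMHet3 mice, a genetically mixed stock, at passage 4. The medium held high glucose, no pyruvate and 10% fetal calf serum, and cultures were kept in ambient oxygen with 10% CO2. RNA was taken 48 hours after addition of a compound or of DMSO, the solvent control. Each compound had 3 libraries and DMSO had 6. The compounds were Antimycin A and Dihydrorotenone, both blockers of mitochondrial respiration, Diphenyleneiodonium Cl, which inhibits flavoenzymes, Cardamonin, a plant chalcone, a compound labelled BerberineA, Clofilium tosylate, a blocker of potassium channels, AEG 3482, and Podofilox, which stops microtubule assembly. Doses are not used here. All groups share the 1 line, and the labels do not say whether replicates were separate cultures, so p-values measure the spread between these libraries, which may be technical. Mice were 5 to 8 weeks old per the labels, except for Dihydrorotenone replicate 1, where the label gives 8 to 11 weeks.

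A myofibroblast is a fibroblast that has built contractile bundles of actin and myosin, called stress fibres, and alpha smooth muscle actin, the product of Acta2, is its best known marker. In such cells monomeric actin holds the coactivators MRTF-A and MRTF-B in the cytoplasm. When actin polymerises, the coactivators enter the nucleus and act with serum response factor, the product of Srf, at a DNA element called the CArG box, which lies near many genes of actin, myosin and focal adhesions. Fibroblasts on stiff plastic in serum commonly express such genes.

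Between 12229 and 12700 genes reached 1 TPM (a level corrected for transcript length and scaled to a fixed library total) in each library. The number of reads behind a value is unknown here. Replicates of a group had Pearson correlations of log2(TPM + 1) across genes of 0.9942 to 0.9966. Because the library numbers in the labels are consecutive within each group, an effect of a compound and one of the batch of libraries cannot be told apart. In bulk RNA, fewer cells of a type and less RNA per cell cannot be told apart either. All 9 fibroblast markers, among them Col1a1, Pdgfra and Dcn, were present in every library. Their summed level was 9388 to 10761 TPM in DMSO, 3826 to 4521 TPM in Cardamonin and 7844 to 9473 TPM over the other 7 compounds. Myocd, the coactivator that defines smooth muscle cells, was at most 0.0730 TPM in any library, and Myh11 was at most 0.684 TPM. Other genes of a list of 10 smooth muscle and pericyte markers were present, 5 of the 10 at a mean of 1 TPM or more in DMSO.

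The promoter letters of the genes are shown first because the CArG box is the element that connects Srf with the others. The RefSeq promoter table for GRCm38.p6 holds windows of 250 bases before to 50 bases after the annotated start for 7 of the 10 genes, namely Acta2, Tpm1, Tpm2, Cnn1, Myl9, Srf and Vcl. The stretches below are read 5′ to 3′ on the gene's strand, with CArG boxes in capitals. For Acta2 only the bases around the matches are shown. There the capitals mark the near matches with a single G or C inside the A/T core, and the same holds for the second capital run of Myl9.
Acta2, chr19:34255438-34255467, minus strand: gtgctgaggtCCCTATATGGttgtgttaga
Acta2, chr19:34255388-34255417, minus strand: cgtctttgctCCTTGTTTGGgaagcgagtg
Myl9, chr2:156775214-156775419, plus strand: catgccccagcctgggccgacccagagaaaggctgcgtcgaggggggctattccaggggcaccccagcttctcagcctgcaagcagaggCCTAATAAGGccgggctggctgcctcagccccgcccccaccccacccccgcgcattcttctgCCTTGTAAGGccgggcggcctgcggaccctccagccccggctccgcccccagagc
Srf, chr17:46556176-46556412, minus strand: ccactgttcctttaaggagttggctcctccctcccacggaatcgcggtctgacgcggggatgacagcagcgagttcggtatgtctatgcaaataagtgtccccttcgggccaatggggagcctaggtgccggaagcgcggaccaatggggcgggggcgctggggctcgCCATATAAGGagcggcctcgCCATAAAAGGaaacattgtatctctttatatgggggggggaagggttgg
Vcl, chr14:20929148-20929397, plus strand: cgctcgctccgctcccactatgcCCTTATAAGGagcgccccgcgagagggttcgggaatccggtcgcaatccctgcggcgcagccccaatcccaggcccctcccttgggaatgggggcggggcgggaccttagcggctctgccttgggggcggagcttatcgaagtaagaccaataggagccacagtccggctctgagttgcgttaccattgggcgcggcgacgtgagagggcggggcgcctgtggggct

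A full CArG box stood in 3 of the 7 windows, those of Srf, Myl9 and Vcl, against 1.63% of all 32851 promoter windows in the table. Srf had a pair of boxes, which began 82 and 62 bases before the start. Myl9 had 1 box 161 bases before the start and Vcl had 1 at 227 bases. Near matches with a single G or C in the core, a class added after seeing the windows, stood in Acta2, 84 and 34 bases before the start, and in Myl9, 99 bases before it, against 8.5% of all windows. The letters CATTCC, the core of the element bound by TEAD factors, were searched on both strands and stood in the windows of Acta2, Tpm1 and Vcl, against 14.7% of all windows. TATAAA, also searched on both strands, stood in Srf, against 13.6% of windows. No match in the 7 windows overlapped another. Tpm2 and Cnn1 held none of these letters in the window. Distances count from the RefSeq start, which can differ from the GENCODE gene positions given below. In GENCODE M21, Acta2 reaches 34255590 and Tpm1 67049406 on the minus strand, so the matches of both lie inside the annotated gene. All these matches are letters only, and binding was not measured.

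**Figure D1:**
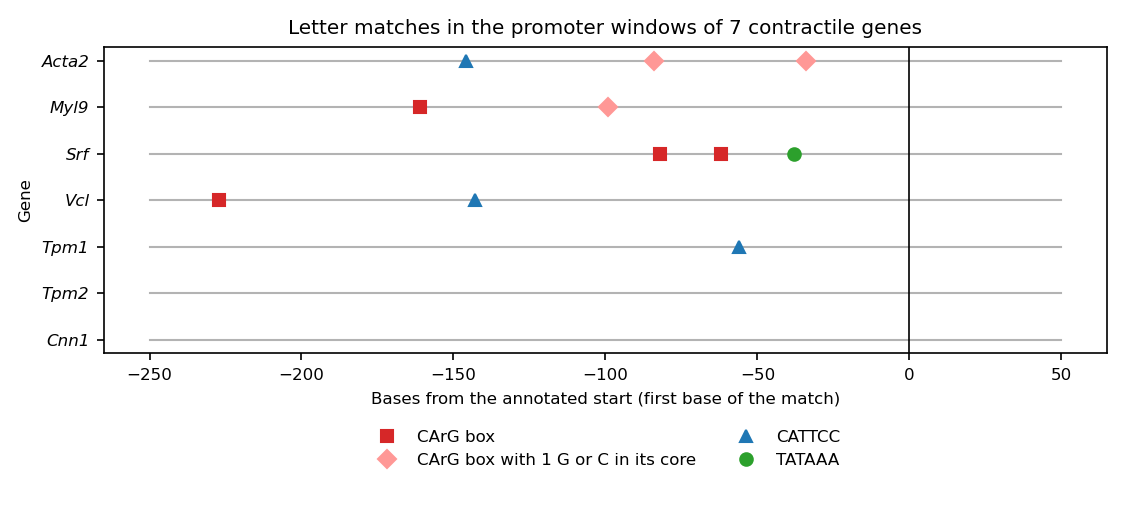
Positions of letter matches in the 300-base RefSeq promoter windows of 7 contractile genes, with 1 line per gene. The x axis gives the distance in bases from the annotated RefSeq start. Full CArG boxes lie in Srf, Myl9 and Vcl, near matches in Acta2 and Myl9, and Tpm2 and Cnn1 hold no match.

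The question for each compound was which contractile genes it moved relative to its solvent. Values were tested on the log2(TPM + 1) scale with limma, and a gene was called at an adjusted p below 0.05 over all 13644 genes tested. Of the 10 genes 9 were tested, and Myh11 stayed below the minimum of 1 TPM in 3 libraries. Cnn1 passed that minimum through DMSO, Dihydrorotenone, BerberineA and Clofilium tosylate, the groups where it was high, and its mean over all 30 libraries was under 1 TPM. It is therefore left out of the counts of calls, which run over the other 8 genes. In AEG 3482, 7 of the 8 genes were lower and none was higher, where 26.8% of all tested genes were lower and 41.3% higher. Antimycin A had 6 of 8 lower and none higher (15.5% of all genes lower, 21.8% higher), and Diphenyleneiodonium Cl likewise 6 of 8 (11.7% lower, 14.0% higher). Clofilium tosylate had 4 of 8 lower (12.5% of all genes lower, 10.9% higher) and Dihydrorotenone 1 of 8 (9.43% lower, 4.95% higher). BerberineA had 2 lower and 1 higher, Tpm1 (9.16% lower, 12.6% higher). All 10 genes were also counted without a model or a minimum, beside shares of the 13644 tested genes, which had passed the minimum. Every library lay below every DMSO library for 8 genes in AEG 3482 (22.8% of all tested genes). That number was 6 for Antimycin A (13.0% of all tested genes), 6 for Diphenyleneiodonium Cl (11.3%) and 5 for Clofilium tosylate (11.2%). It was 3 for BerberineA (8.56%) and 2 for Dihydrorotenone (9.87%). The median log2 fold change of the 8 genes was −1.63 for AEG 3482, −0.55 for Diphenyleneiodonium Cl and −0.53 for Antimycin A. It was −0.26 for Clofilium tosylate, −0.15 for Dihydrorotenone and −0.07 for BerberineA. The medians of all tested genes lay between −0.03 and 0.10 in the same comparisons. In Cardamonin and Podofilox, which the choice of Acta2 used, 9 of the 10 genes lay wholly below DMSO, beside 28.7% and 16.7% of all tested genes, and nothing is read from those counts. All comparisons share the 6 DMSO libraries, so their fold changes are not independent of each other.

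**Figure D2:**
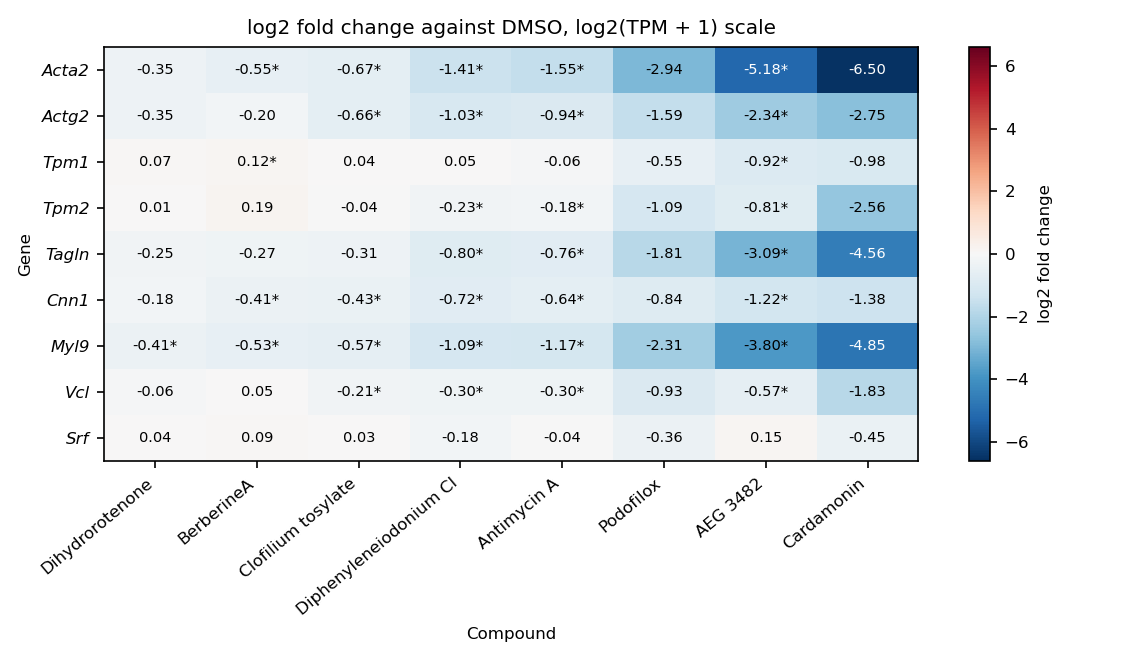
log2 fold change against DMSO for 9 contractile genes (rows) in 8 compounds (columns), from limma on log2(TPM + 1). Blue is lower and red higher, and a star marks an adjusted p below 0.05 in the 6 compounds that were tested, with Acta2 in AEG 3482 at −5.18 the largest fall among them. Actg2 and Cnn1 in Cardamonin were listed at 0 in 2 of 3 libraries, so their fitted values there depend on the added 1 TPM.

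Acta2, on chromosome 19 (GRCm38, positions 34241090 to 34255590), encodes alpha smooth muscle actin. It had 194 TPM in the lowest DMSO library, a median of 248 and 323 in the highest, with a mean of 250.2 ± 42.8 TPM (SD, n = 6). In AEG 3482 the 3 libraries had 6.35, 5.59 and 5.56 TPM, 2.33% of the DMSO mean. This was the largest fall among the tested values of the 10 genes, with −5.18 ± 0.14 (SE) as log2 fold change (limma adjusted p = 1.60e-20), and no AEG 3482 library came near the DMSO range. Antimycin A had 76.8, 84.2 and 90.6 TPM, a log2 fold change of −1.55 ± 0.14 (adjusted p = 2.44e-09). Diphenyleneiodonium Cl had 89.2, 85.1 and 103 TPM, a log2 fold change of −1.41 ± 0.14 (adjusted p = 3.30e-08). Both groups lay wholly below DMSO. Clofilium tosylate had 151, 169 and 147 TPM, a log2 fold change of −0.67 (adjusted p = 0.000873). BerberineA had 170, 165 and 170 TPM, a log2 fold change of −0.55 (adjusted p = 0.00501). Dihydrorotenone had 203, 181 and 200 TPM, overlapped DMSO, and did not pass the test (log2 fold change −0.35, adjusted p = 0.101). Without DMSO replicate 4, the lowest control, Dihydrorotenone passed, with a log2 fold change of −0.42 and an adjusted p of 0.0409, where the adjusted p over its 22 alternatives ran up to 0.281. Podofilox had 20.8, 35.5 and 41.2 TPM and Cardamonin 1.84, 1.89 and 1.52 TPM, both wholly below DMSO and, by the choice of the gene, not tested.

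From the highest to the lowest mean, Acta2 ran in the order DMSO, Dihydrorotenone, BerberineA, Clofilium tosylate, Diphenyleneiodonium Cl, Antimycin A, Podofilox, AEG 3482 and Cardamonin. Neighbours whose libraries overlapped were DMSO and Dihydrorotenone, BerberineA and Clofilium tosylate, and Diphenyleneiodonium Cl and Antimycin A. Every other step separated all libraries of the higher group from all libraries of the lower.

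**Figure D3:**
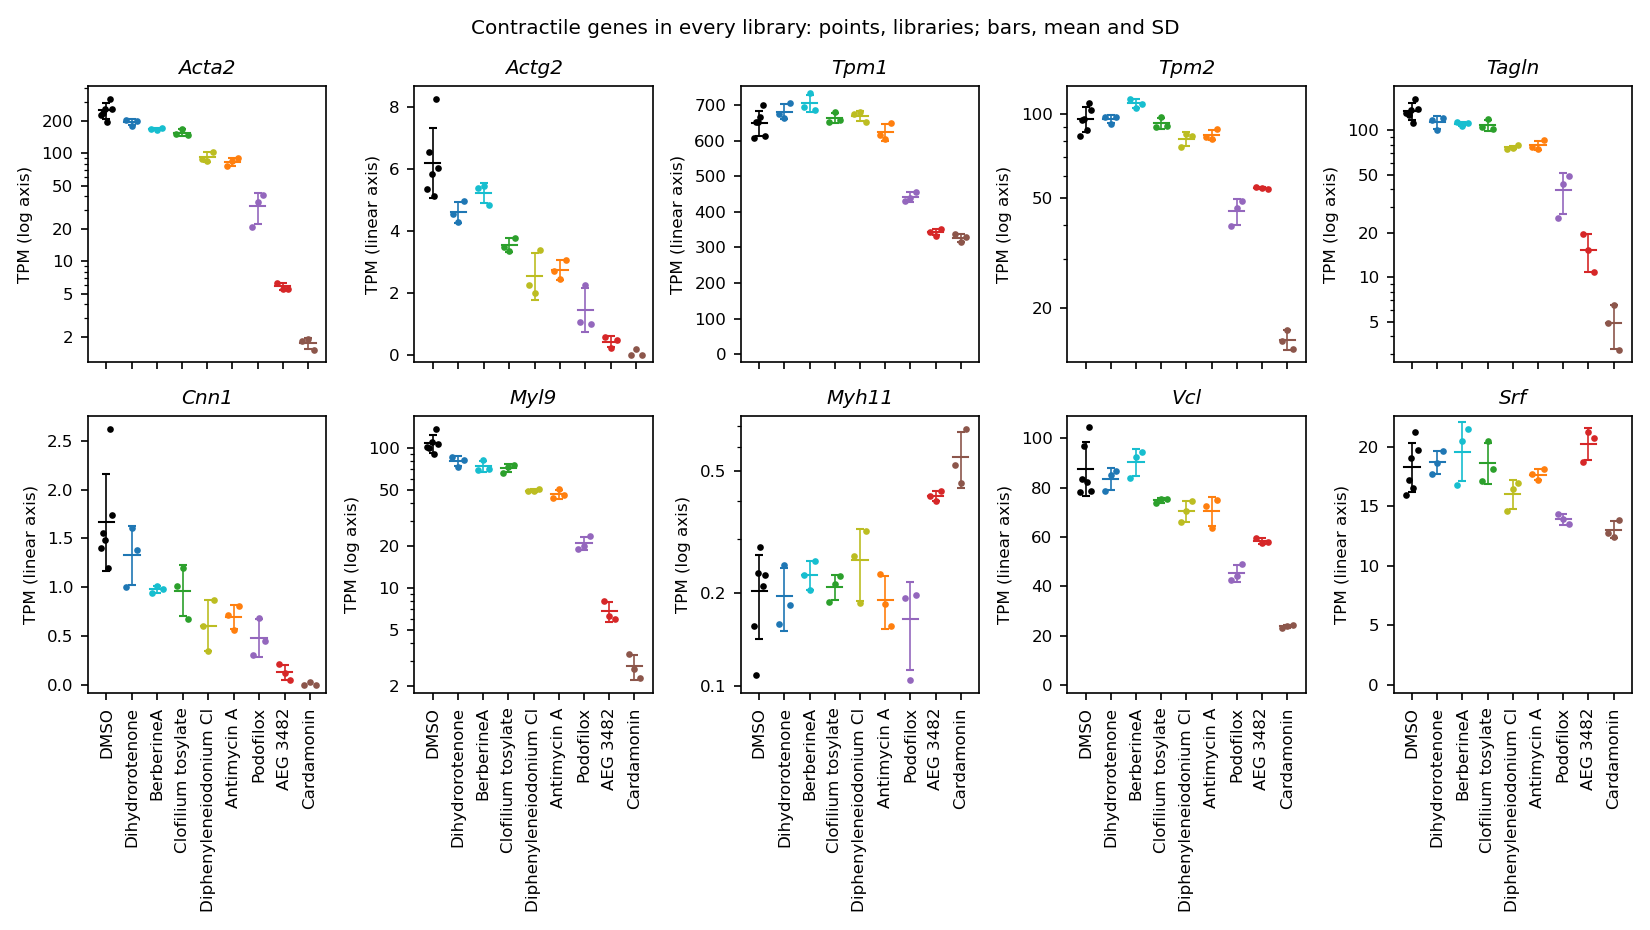
TPM of the 10 contractile genes in all 30 libraries, by group. Points are libraries and bars the mean with SD (left out where most libraries of a group are listed at 0). Acta2, Tagln and Myl9 step down in nearly the same order of groups, Tpm1 and Srf move within a narrow range, and Myh11 stays below 1 TPM and is higher in AEG 3482 and Cardamonin.

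Actg2, on chromosome 6 (83512905 to 83536265), encodes gamma smooth muscle actin and was a minor transcript here, with 5.11 to 8.25 TPM in DMSO and a median of 5.92. The AEG 3482 libraries had 0.568, 0.213 and 0.457 TPM, lower by the test (log2 fold change −2.34 ± 0.14, limma adjusted p = 2.05e-13). It also fell in Diphenyleneiodonium Cl, to 2.23, 1.97 and 3.38 TPM (−1.03, adjusted p = 4.99e-06). In Antimycin A it fell to 2.69, 2.44 and 3.06 TPM (−0.94, adjusted p = 9.52e-06), and in Clofilium tosylate to 3.46, 3.33 and 3.77 TPM (−0.66, adjusted p = 0.00131). All 4 of these groups lay below every DMSO library. Dihydrorotenone, with 4.53, 4.28 and 4.96 TPM, also lay below every DMSO library and missed the threshold (−0.35, adjusted p = 0.106). BerberineA, with 5.38, 5.42 and 4.84 TPM, overlapped DMSO (−0.20, adjusted p = 0.369). Podofilox had 1.05, 2.25 and 0.982 TPM. In Cardamonin Actg2 was listed at 0 in 2 libraries and at 0.188 TPM in the third.

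In AEG 3482 the actins that every cell uses moved far less than Acta2 and Actg2. Actb had 792 ± 75.2 TPM and Actg1 755 ± 53.3 TPM in DMSO (SD, n = 6), so each was about as abundant as the other and above Acta2. In AEG 3482 Actg1 fell by 0.42 on the log2 scale (limma adjusted p = 9.63e-08), to 563 ± 17.4 TPM, and Actb did not pass (−0.12, adjusted p = 0.145). Actg1 rose in Antimycin A (0.25, adjusted p = 0.000381) and in BerberineA (0.27, adjusted p = 0.000409), and the former call was lost under quantile normalization. A call in Dihydrorotenone (0.17, adjusted p = 0.0239) was lost in 4 of 21 alternatives, among them the fits without its replicate 2 or 3 (0.10 at the least). Actb fell in Diphenyleneiodonium Cl (−0.22), a call lost in 4 of 21 alternatives. In the compounds used in choosing Acta2, Actg1 was at −0.88 in Cardamonin and Actb at −0.63 in Podofilox. The 6 actin genes together had 948 ± 17.3 TPM in Cardamonin and 966 ± 54.4 TPM in Podofilox, against 1804 ± 146 TPM in DMSO. The striated muscle actins Acta1, at most 0.799 TPM, and Actc1, at most 0.0624 TPM, were below the minimum for a test. Within a library, where a common scale cancels, Acta2 made up 13.9% ± 1.89 of the TPM of the 6 actin genes in DMSO. Among compounds its share was highest in Dihydrorotenone, at 10.5% ± 0.740 (SD, n = 3 for each compound). Clofilium tosylate had 9.06% ± 0.397, BerberineA 8.97% ± 0.302, Diphenyleneiodonium Cl 6.01% ± 0.718 and Antimycin A 4.88% ± 0.346. The lowest shares were 3.33% ± 0.922 in Podofilox, 0.450% ± 0.0367 in AEG 3482 and 0.185% ± 0.0246 in Cardamonin. The share lay below all 6 DMSO libraries in every compound but Dihydrorotenone. Of the 31-base words in Acta2 transcripts, 1.39% also occur in another gene.

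The tropomyosins lie along actin filaments and control what else can bind. Tpm1, on chromosome 9 (67022590 to 67049406), was the most abundant of the 10 genes, with 606 to 701 TPM in DMSO and a median of 652. In AEG 3482 it had 343, 333 and 351 TPM, lower by the test (log2 fold change −0.92 ± 0.04, limma adjusted p = 2.66e-16). The other 5 tested compounds stayed within 604 and 732 TPM and overlapped DMSO. BerberineA, with 694, 732 and 687 TPM, was called higher by 0.12 (adjusted p = 0.0303), yet this call was lost in 9 of 22 alternatives, among them all 3 other scalings and the fits without BerberineA replicate 1 or 2 or DMSO replicate 1 or 6, where the log2 fold change was 0.13, 0.09, 0.10 and 0.11. Podofilox had 430, 439 and 457 TPM and Cardamonin 338, 315 and 328 TPM.

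Tpm2, on chromosome 4 (43514711 to 43523765), had 83.3 to 110 TPM in DMSO and a median of 95.7. AEG 3482 had 54.7, 54.2 and 53.8 TPM, and fell by 0.81 ± 0.07 on the log2 scale (SE; limma adjusted p = 1.92e-10). Antimycin A, with 82.8, 81.8 and 88.6 TPM, and Diphenyleneiodonium Cl, with 76.1, 85.0 and 83.9 TPM, were called lower (−0.18, adjusted p = 0.0456, and −0.23, adjusted p = 0.0178) although both overlapped DMSO. The Antimycin A call was lost in 11 of 22 alternatives, 6 of them the removal of 1 library (Antimycin A replicate 1 or 2, or DMSO replicate 2, 3, 5 or 6), with log2 fold changes between −0.22 and −0.11 over all alternatives. The Diphenyleneiodonium Cl call was lost in 4 of 22, among them the fit without its replicate 1 (−0.18). Cardamonin had 15.2, 16.7 and 14.2 TPM and Podofilox 39.4, 46.0 and 48.6 TPM, so here Podofilox lay below AEG 3482, the reverse of the order for Acta2. In each of the 5 compounds that left Tpm1 near its control level, Tpm1 made up 54.9% to 58.9% of the TPM of the 4 tropomyosin genes on average, above all DMSO libraries (53.5% ± 0.932, SD, n = 6). In AEG 3482 its share was 38.2% ± 0.890, in Cardamonin 40.2% ± 0.598 and in Podofilox 44.9% ± 0.816.

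Tagln, on chromosome 9 (45929619 to 45936058), encodes transgelin, an early marker of smooth muscle that binds actin filaments. In DMSO it had 111 to 164 TPM with a median of 134. AEG 3482 had 19.7, 15.4 and 10.9 TPM, lower by the test (log2 fold change −3.09 ± 0.17, limma adjusted p = 2.70e-14). Diphenyleneiodonium Cl, with 74.6, 75.7 and 79.0 TPM, fell by 0.80 (adjusted p = 0.000807), and Antimycin A, with 76.6, 74.8 and 86.0 TPM, fell by 0.76 (adjusted p = 0.000884). These 3 groups lay below every DMSO library. Clofilium tosylate had 104, 119 and 102 TPM, BerberineA 113, 107 and 113 TPM and Dihydrorotenone 118, 101 and 121 TPM. All 3 overlapped DMSO and missed the threshold, with log2 fold changes of −0.31, −0.27 and −0.25 (adjusted p = 0.204, 0.284 and 0.375). Podofilox had 25.3, 42.8 and 48.7 TPM and Cardamonin 4.92, 6.48 and 3.22 TPM. Of the 31-base words in Tagln transcripts, 62.2% also occur in another gene, most of them in the antisense gene Gm48529. Gm48529 was not found among the genes with values, so whether reads of this locus were shared with it was not tested. Whether the counting used strand is not given in the sources used here.

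Tagln made up 41.7% ± 3.46 of the TPM of the 3 transgelin genes in DMSO (SD, n = 6), 30.1% ± 0.407 in Diphenyleneiodonium Cl, 28.3% ± 1.06 in Antimycin A, 11.4% ± 3.12 in Podofilox, 9.79% ± 3.09 in AEG 3482 and 4.13% ± 1.16 in Cardamonin (SD, n = 3 each). The family as a whole had 323 ± 15.8 TPM in DMSO and 339 ± 19.8 TPM in Podofilox, while it had 157 ± 7.14 TPM in AEG 3482 and 117 ± 7.01 TPM in Cardamonin. In Podofilox, then, the family's level was close to the control and its make-up was not.

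Cnn1, on chromosome 9 (22099216 to 22109630), encodes calponin 1, which restrains myosin on actin and marks mature smooth muscle. It was scarce, with 1.20 to 2.62 TPM in DMSO and a median of 1.52, where replicate 5 stood highest. AEG 3482 had 0.211, 0.126 and 0.0508 TPM (log2 fold change −1.22 ± 0.13, limma adjusted p = 1.04e-08). Diphenyleneiodonium Cl had 0.601, 0.349 and 0.874 TPM (−0.72, adjusted p = 0.000180) and Antimycin A 0.720, 0.564 and 0.805 TPM (−0.64, adjusted p = 0.000427). Cnn1 passed the minimum only through DMSO, Dihydrorotenone, BerberineA and Clofilium tosylate, where it was high. Its p-values are therefore given for this gene alone and are left out of the counts of lower genes above. With no minimum on low values these 3 falls also passed. The added 1 TPM makes these log2 values understate the change of so low a gene, whose mean in AEG 3482 was 7.75% of that in DMSO. Clofilium tosylate, with 1.02, 1.20 and 0.679 TPM (−0.43, adjusted p = 0.0194), and BerberineA, with 0.943, 1.01 and 0.981 TPM (−0.41, adjusted p = 0.0268), were also called lower. The Clofilium tosylate call was lost in 4 of 21 alternatives, among them the fit without its replicate 3 (−0.32). The BerberineA call was lost in 7 of 21, among them the fits without any single BerberineA library (−0.42 to −0.40) and without DMSO replicate 5 (−0.32). Dihydrorotenone had 1.01, 1.60 and 1.38 TPM and overlapped DMSO (−0.18, adjusted p = 0.402). Podofilox had 0.305, 0.690 and 0.451 TPM, and in Cardamonin Cnn1 was listed at 0 in 2 libraries and at 0.0319 TPM in the third.

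Myl9, on chromosome 2 (156775420 to 156781658), encodes the regulatory light chain of smooth muscle myosin, whose phosphorylation switches contraction on. It was the contractile gene called lower in all 6 tested compounds. DMSO had 89.9 to 136 TPM with a median of 104. AEG 3482 had 8.01, 6.31 and 6.0 TPM, lower by the test (log2 fold change −3.80 ± 0.10, limma adjusted p = 1.93e-20). Antimycin A had 43.9, 50.3 and 45.8 TPM (−1.17, adjusted p = 1.77e-09), and Diphenyleneiodonium Cl had 48.7, 49.3 and 50.4 TPM (−1.09, adjusted p = 1.90e-08). Clofilium tosylate followed with 66.3, 73.3 and 75 TPM (−0.57, adjusted p = 0.000205), then BerberineA with 69.0, 81.6 and 70.8 TPM (−0.53, adjusted p = 0.000504). Dihydrorotenone had 86.2, 72.8 and 81.9 TPM (−0.41, adjusted p = 0.00927), and its call was lost in 2 of 22 alternatives, 1 of them the fit without its replicate 2 (−0.34). All 6 groups lay below every DMSO library. Podofilox had 19.0, 19.9 and 23.3 TPM and Cardamonin 3.38, 2.65 and 2.26 TPM.

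Myl12a and Myl12b, the light chains of nonmuscle cells, made up the rest of the family. Myl9 held 14.4% ± 1.47 of the TPM of these 3 genes in DMSO (SD, n = 6), 7.72% ± 0.382 in Antimycin A, 3.36% ± 0.268 in Podofilox, 0.990% ± 0.186 in AEG 3482 and 0.510% ± 0.104 in Cardamonin (SD, n = 3 each). Its share was below all DMSO libraries in all 8 compounds. The family total was 741 ± 34.9 TPM in DMSO and 687 ± 25.8 TPM in AEG 3482.

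**Figure D4:**
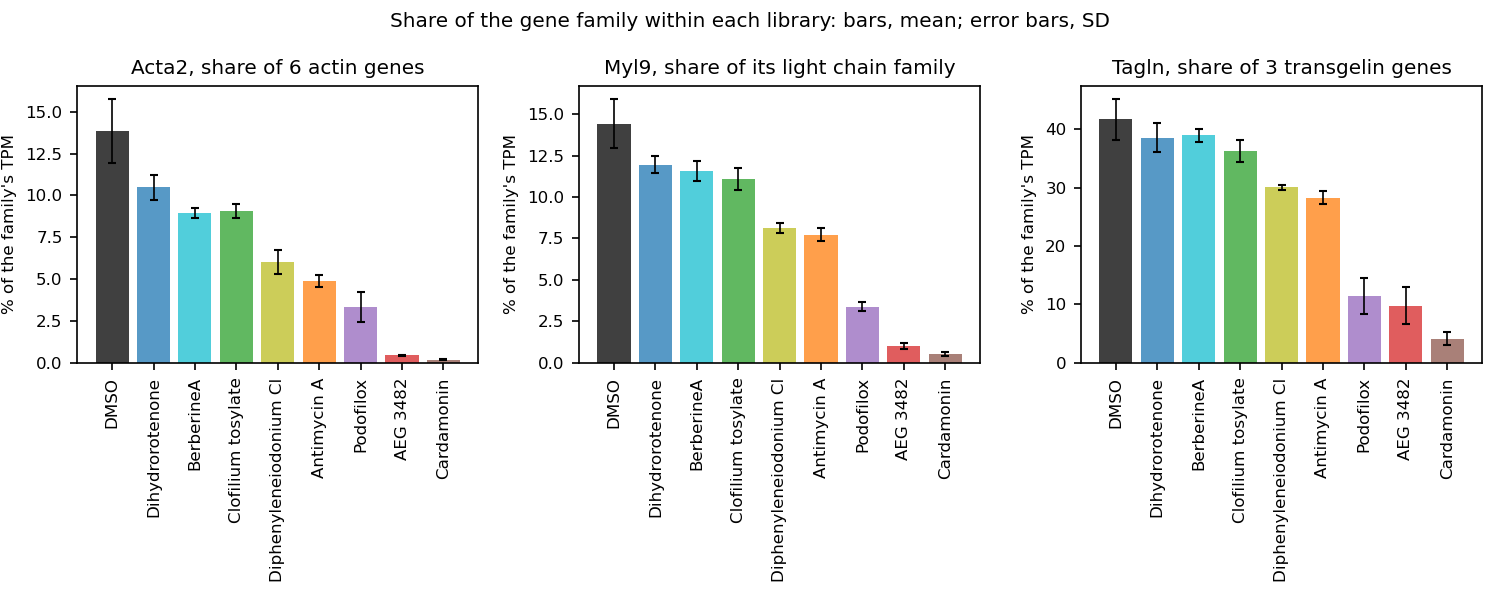
Share of Acta2 among the 6 actin genes, of Myl9 among Myl9, Myl12a and Myl12b, and of Tagln among the 3 transgelin genes, as percent of the family's TPM within a library (bars, mean; error bars, SD; 3 libraries per compound and 6 for DMSO). In AEG 3482 the shares were 0.450%, 0.990% and 9.79%, against 13.9%, 14.4% and 41.7% in DMSO.

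Myh11, on chromosome 16 (14194535 to 14291372), encodes the smooth muscle myosin heavy chain, the most restricted marker of mature smooth muscle. It had 0.108 to 0.283 TPM in DMSO with a median of 0.219. The AEG 3482 libraries, at 0.413, 0.399 and 0.429 TPM, and the Cardamonin libraries, at 0.522, 0.458 and 0.684 TPM, all lay above DMSO, and those of the other 6 compounds overlapped it. It did not enter the test. Of its 31-base words, 0.905% occur in another gene, mostly in Myh9, the nonmuscle heavy chain, which had 178 ± 13.5 TPM in DMSO and rose to 444 ± 17.2 TPM in AEG 3482 (log2 fold change 1.32, limma adjusted p = 3.88e-14). Myh9 had 414 ± 37.5 TPM in Cardamonin. Whether reads of Myh9 add to the Myh11 values was not tested.

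Vcl, on chromosome 14 (20929398 to 21033676), encodes vinculin, which ties actin to integrin adhesions. DMSO had 78.4 to 105 TPM with a median of 83.0. AEG 3482 had 59.6, 57.4 and 57.9 TPM, lower by the test (log2 fold change −0.57 ± 0.07, limma adjusted p = 2.16e-07). Antimycin A, with 72.4, 63.6 and 75.1 TPM, and Diphenyleneiodonium Cl, with 66.0, 70.6 and 74.6 TPM, each fell by 0.30 (adjusted p = 0.00193 and 0.00320). Clofilium tosylate had 73.7, 75.4 and 75.6 TPM and was called lower (−0.21, adjusted p = 0.0385). That call was lost in 8 of 22 alternatives, 5 of them the removal of 1 library (any Clofilium tosylate library, or DMSO replicate 3 or 5), with log2 fold changes between −0.24 and −0.16 over all alternatives. These 4 groups lay below every DMSO library. BerberineA, with 83.9, 92.4 and 94.4 TPM, and Dihydrorotenone, with 78.5, 85.2 and 86.8 TPM, overlapped DMSO. Podofilox had 42.4, 44.4 and 49.1 TPM and Cardamonin 23.0, 23.7 and 24.4 TPM. Vcl shares 25.3% of its 31-base words with Ap3m1, which overlaps its end on the other strand. Ap3m1 had a median of 33.1 TPM in DMSO, 50.5 TPM in AEG 3482 and 69.5 TPM in Cardamonin, the opposite direction to Vcl.

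Srf, on chromosome 17 (46548329 to 46556175), encodes the transcription factor itself. It had 15.9 to 21.3 TPM in DMSO with a median of 18.1. None of the 6 tested compounds changed it by the test. AEG 3482 had 18.8, 21.3 and 20.8 TPM and overlapped DMSO (log2 fold change 0.15 ± 0.08, limma adjusted p = 0.110). Without DMSO replicate 5, the highest control, Srf passed in AEG 3482 as higher (0.19, adjusted p = 0.0339), where the adjusted p over its 22 alternatives ran from 0.0106 to 0.814. Diphenyleneiodonium Cl had 14.7, 16.5 and 17 TPM (−0.18, adjusted p = 0.112), and Antimycin A had 17.7, 17.2 and 18.2 TPM (−0.04, adjusted p = 0.743). Dihydrorotenone, BerberineA and Clofilium tosylate ran from 16.8 to 21.5 TPM together. Podofilox had 14.4, 13.9 and 13.5 TPM and Cardamonin 12.8, 12.5 and 13.8 TPM, both below every DMSO library. Of the 8 contractile genes counted, Srf was the 1 not called lower in AEG 3482.

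DMSO replicate 5 held the highest DMSO value of 9 of the 10 genes, all but Myh11, and replicate 4 the lowest of 5 of them, Acta2, Actg2, Tagln, Cnn1 and Myl9. Among the Podofilox libraries, replicate 1 was lowest for 7 of 10. So the extreme values of several genes fell in the same libraries.

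The compounds were also set against each other directly, over the 15 pairs among the 6 compounds not used in choosing Acta2. In each of its 5 pairs AEG 3482 was lower for 7 of the 8 genes counted, where 63.9% (BerberineA), 64.3% (Diphenyleneiodonium Cl), 64.4% (Antimycin A and Clofilium tosylate) and 65.4% (Dihydrorotenone) of all tested genes differed. Srf was not called lower in any of them. In Diphenyleneiodonium Cl minus AEG 3482 its log2 difference was −0.32 (limma adjusted p = 0.00378), higher in AEG 3482. Against Antimycin A, the nearest of the 5 for Acta2, Antimycin A was higher by 3.63 ± 0.16 on the log2 scale for Acta2 (limma adjusted p = 4.57e-16) and by 2.62 ± 0.12 for Myl9.

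Antimycin A and Diphenyleneiodonium Cl showed no called difference in any of the 8 genes counted, where 6.04% of all genes differed. Their difference in Acta2 was −0.14 ± 0.16 (adjusted p = 0.707) and in Myl9 −0.08 ± 0.12 (adjusted p = 0.772). Dihydrorotenone, BerberineA and Clofilium tosylate likewise showed no called difference in any of their 3 pairs, where 1.51%, 2.46% and 2.81% of all genes differed. Antimycin A was lower than Dihydrorotenone for Acta2 (−1.20 ± 0.16, adjusted p = 8.40e-06), Myl9 (−0.77) and Actg2 (−0.59), 3 of 8 genes where 15.5% of all genes differed. It was lower than BerberineA for 6 of 8 (9.04% of all genes) and than Clofilium tosylate for Acta2 and Myl9 (5.21%). Diphenyleneiodonium Cl was lower than Dihydrorotenone for 3 of 8 (3.68%), than BerberineA for 4 of 8 (0.623%) and than Clofilium tosylate for Acta2 and Myl9 (3.15%).

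The coactivators of Srf were measured next. Mrtfa had 21 ± 2.29 TPM and Mrtfb 8.37 ± 0.956 TPM in DMSO (SD, n = 6). In AEG 3482 Mrtfb rose to 11.7 ± 0.633 TPM (log2 fold change 0.44, limma adjusted p = 0.000222), and Mrtfa had 23.6 ± 0.798 TPM (0.17, adjusted p = 0.0909). In Antimycin A Mrtfa fell to 16.1 ± 0.688 TPM (−0.35, adjusted p = 0.00244). Podofilox had 29.0 ± 1.41 TPM of Mrtfa and 13.5 TPM of Mrtfb, and Cardamonin 16.5 and 13.6 TPM. Of the 15 tested genes of a list of Srf partners and TEAD factors, 4 were lower and 7 higher in AEG 3482, shares near those of all tested genes there (26.8% lower, 41.3% higher). In Antimycin A 4 were lower and 2 higher, beside 15.5% and 21.8% of all genes. Klf4, a repressor of smooth muscle genes in other settings, rose from 23.5 ± 2.73 to 77 ± 2.05 TPM in AEG 3482 (1.67, adjusted p = 6.56e-14). Tead1 rose there too (1.10, adjusted p = 1.01e-11). Fhl2, a LIM protein that is itself a target of Srf, fell in all 6 tested compounds, most in Antimycin A (−0.86, adjusted p = 5.94e-09). The Dihydrorotenone call for Fhl2 was lost when only that compound and DMSO were fitted.

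**Figure D5:**
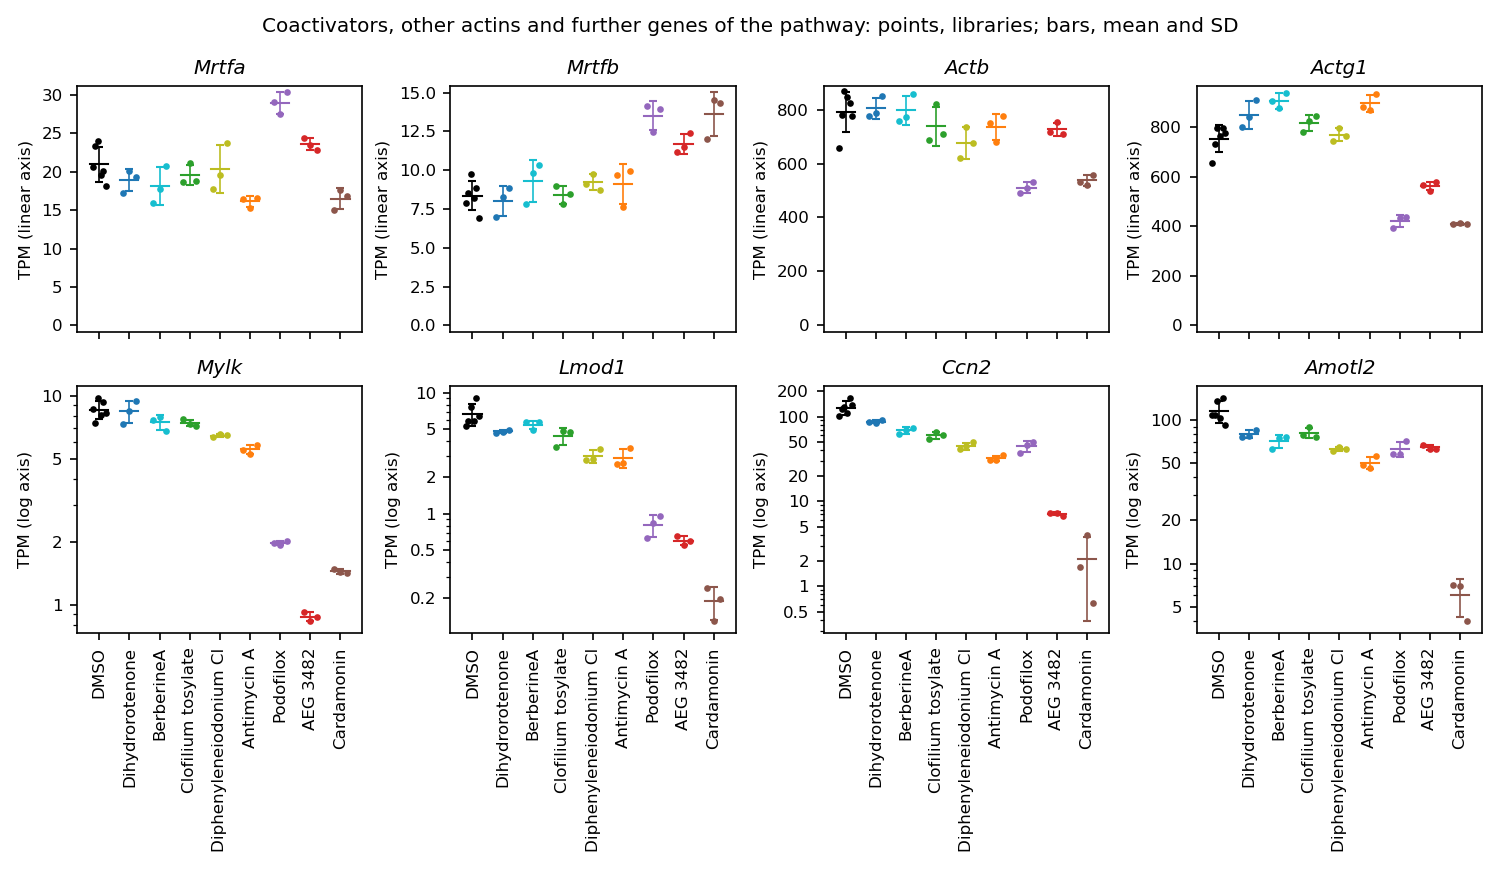
TPM by library and group for the coactivator genes Mrtfa and Mrtfb, the general actins Actb and Actg1, and Mylk, Lmod1, Ccn2 and Amotl2 (points, libraries; bars, mean with SD). Mylk, Lmod1 and Ccn2 are lowest in AEG 3482 and Cardamonin, with 8.59 TPM of Mylk in DMSO and 0.879 TPM in AEG 3482, while Mrtfb is higher in AEG 3482, Cardamonin and Podofilox.

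Genes that act on the contractile apparatus were read beside these. Only some genes of that list are named, and no direction of the list as a whole is read from them. Mylk, the kinase that phosphorylates Myl9, fell in AEG 3482 from 8.59 ± 0.870 to 0.879 ± 0.0462 TPM (−2.35, limma adjusted p = 1.33e-19). Itga11, a collagen-binding integrin of myofibroblasts, fell as well (−1.40, adjusted p = 1.43e-08). Diaph1, a formin that builds actin filaments, rose there (1.17, adjusted p = 8.04e-13). In Antimycin A both Mylk (−0.55, adjusted p = 7.84e-07) and Itga11 (−0.97, adjusted p = 1.74e-05) fell. In Cardamonin Itga11 had 3.66 ± 1.78 TPM against 52.8 ± 5.29 TPM in DMSO.

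Of 38 tested genes of stress fibres and actin filaments outside the panel, 16 were lower and 18 higher in AEG 3482, beside 26.8% and 41.3% of all tested genes. In Antimycin A 16 were lower and 3 higher (15.5% and 21.8% of all genes), and in Diphenyleneiodonium Cl 13 and 2 (11.7% and 14.0%). Clofilium tosylate had 11 lower and none higher (12.5% and 10.9%), Dihydrorotenone 10 and none (9.43% and 4.95%) and BerberineA 8 and 3 (9.16% and 12.6%). The falls in AEG 3482 included smooth muscle genes. Lmod1, an actin nucleator of smooth muscle, fell from 6.70 ± 1.43 to 0.599 ± 0.0513 TPM (−2.25, limma adjusted p = 9.06e-15). Synpo2, a filament cross-linker, fell by 2.09 (adjusted p = 1.60e-09) and Csrp1, a LIM protein of smooth muscle, by 1.62 (adjusted p = 2.79e-17). Csrp1 was not called in any of the other 5 tested compounds, and Podofilox left it at 108 ± 9.67 TPM against 99.1 ± 7.63 TPM in DMSO. Cnn2, the calponin of nonmuscle cells, fell in all 6 tested compounds but BerberineA, by 0.38 to 1.21, and its calls in Dihydrorotenone and Clofilium tosylate were each lost without 1 library (Dihydrorotenone replicate 2, with −0.31 at the least over 21 alternatives, and Clofilium tosylate replicate 1, with −0.32 at the least).

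Of 8 targets shared by Srf coactivators and YAP, 6 were lower in AEG 3482, where 26.8% of all genes were. The number was 6 for Antimycin A (15.5% of all genes), 7 for Diphenyleneiodonium Cl (11.7%), 6 for Clofilium tosylate (12.5%), 4 for BerberineA (9.16%) and 2 for Dihydrorotenone (9.43%). The 7 include Ankrd1, a scarce gene whose call in Diphenyleneiodonium Cl was lost in 8 of 20 alternatives. Among these were the fits without any single library of that compound, and log2 fold changes over all alternatives lay between −0.91 and −0.15. Axl, a receptor kinase, was called higher in Diphenyleneiodonium Cl (0.24, limma adjusted p = 0.0223), a call lost in 4 of 21 alternatives, among them the fits without replicate 2 or 3 of that compound (0.20 at the least). Ccn2, a matricellular protein that goes with fibrosis, fell from 128 ± 22.9 TPM in DMSO to 7.16 ± 0.343 TPM in AEG 3482 (−3.96, adjusted p = 2.47e-15). In Antimycin A it fell to 32.2 ± 2.34 TPM (−1.94, adjusted p = 1.40e-08). Ccn1, its relative, fell in the same 2 compounds by 1.63 and 1.37. Amotl2, an inhibitor of YAP that YAP itself induces, fell in all 6, most in Antimycin A (−1.17, adjusted p = 9.21e-08). Its Dihydrorotenone call (−0.51) was lost without Dihydrorotenone replicate 1 (−0.45 at the least over 21 alternatives), and in Cardamonin it had 6.02 ± 1.80 TPM against 116 ± 20.1 TPM in DMSO. Here Antimycin A lay below AEG 3482, with 50.4 ± 4.97 against 64.6 ± 2.55 TPM, the other way round from Acta2 (Antimycin A minus AEG 3482, log2 difference −0.36 ± 0.15, SE; limma adjusted p = 0.0413). Ankrd1 fell in AEG 3482 (−0.80, limma adjusted p = 0.000110), and Podofilox had 2.89 ± 0.755 TPM of it against 1.14 ± 0.451 TPM in DMSO. Its DMSO level was thus near the minimum of 1 TPM, and it is among the 6 lower genes in AEG 3482. Unlike the counts of the contractile genes, which leave out Cnn1, the counts of this and the other lists leave out no scarce gene that was tested.

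The other class of Srf targets holds immediate early genes that depend on ternary complex factors rather than on MRTFs. Of 9 genes, Antimycin A, Dihydrorotenone and Diphenyleneiodonium Cl each had 1 lower, Egr3, beside 15.5%, 9.43% and 11.7% of all genes. BerberineA and Clofilium tosylate each had 3 lower, beside 9.16% and 12.5% of all genes, among them Nr4a1 in BerberineA (−0.89, limma adjusted p = 0.0118) and Fos in Clofilium tosylate (−0.92, adjusted p = 0.0155), a call lost without Clofilium tosylate replicate 2 or 3 (−0.64 at the least over 21 alternatives). AEG 3482 had 3 higher and 2 lower, beside 41.3% and 26.8% of all genes, with Egr1 higher (1.13, adjusted p = 0.00500) and Egr2 lower (−1.24, adjusted p = 4.04e-06). Egr3 rose there (0.70, adjusted p = 4.39e-07) and fell in the other 5 tested compounds, where the Dihydrorotenone call was lost without its replicate 1 (−0.20 at the least over 20 alternatives).

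Of 17 other genes of the myofibroblast state, mostly of the matrix, 14 were lower and 2 higher in Antimycin A, beside 15.5% and 21.8% of all genes. In AEG 3482 10 were lower and 3 higher, beside 26.8% and 41.3%. Clofilium tosylate had 9 lower (12.5% of all genes), Diphenyleneiodonium Cl 7 (11.7%), BerberineA 6 (9.16%) and Dihydrorotenone 5 (9.43%). Tnc, the matrix glycoprotein tenascin C, had 61.6 ± 6.01 TPM in Antimycin A and 98.6 ± 5.60 TPM in AEG 3482, against 155 ± 10.4 TPM in DMSO, and fell in both. Tgfbi fell most in AEG 3482 (−2.58, adjusted p = 1.72e-08), followed there by Cdh11, the cadherin of myofibroblast junctions (−1.27, adjusted p = 3.81e-14). In Podofilox, where the contractile genes were low, Tnc had 185 ± 8.41 TPM and Lox 1782 ± 68.4 TPM against 1628 ± 137 TPM in DMSO, while Thbs1 had 158 ± 23.0 TPM against 792 ± 148 TPM.

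Markers of other cells that a tail culture could hold were read beside these results. Of the other types, 10 smooth muscle and pericyte markers, 4 of them also in the lists above (Des, Lmod1, Myocd and Smtn), summed to 44.1 to 55.6 TPM in DMSO, with 5 of the 10 at a mean of 1 TPM or more. The sum was 23.2 to 25.8 TPM in AEG 3482 and 12.9 to 16.7 TPM in Cardamonin, with 3 of 10 at 1 TPM in both and Myocd at 0. It was 35.7 to 53.3 TPM over the other 6 compounds. Smtn, with 29.7 TPM in DMSO, carried most of it, while Des, Cspg4, Kcnmb1 and Mcam were below 1 TPM in all 30 libraries. The 6 macrophage markers summed to 154 to 210 TPM in DMSO, most of it Lyz2, and the sum was lower in every compound, at 53.2 to 67.6 TPM in Antimycin A and 117 to 126 TPM in AEG 3482. Cd68, another of the 6, ran the other way, from 11.5 to 14.7 TPM in DMSO, 25.5 to 41.4 TPM in Cardamonin and 15.8 to 18.8 TPM in BerberineA, and overlapped DMSO in the other 6 compounds. Adgre1, also of the 6, had 9.05 to 12.1 TPM in DMSO and lay wholly below it in every compound (2.08 to 2.72 TPM in AEG 3482). Csf1r had 2.62 to 3.36 TPM in DMSO and lay wholly below it in every compound but Podofilox, which overlapped. Ptprc, the pan-leukocyte gene, was at most 0.876 TPM. Their part in the contractile results was not tested. Skeletal muscle markers summed to at most 4.43 TPM and keratinocyte markers to at most 2.43 TPM, with Krt5 at 0 in all groups. Schwann cell and melanocyte markers summed to at most 7.22 TPM. Endothelial markers summed to at most 8.75 TPM, with 5.42 to 8.75 TPM in DMSO, most of it Tek (mean 6.56 TPM). The endothelial sum was lower in AEG 3482, at 1.63 to 1.77 TPM, and in Cardamonin, at 1.09 to 1.18 TPM. Chondrocyte markers gave 279 to 314 TPM in DMSO and 231 to 261 TPM in AEG 3482, and adipocyte markers 146 to 184 TPM and 98.9 to 116 TPM. Comp, with 296 TPM in DMSO, carried most of the chondrocyte sum. Acan was at most 0.0120 TPM, Matn1 at most 0.0259 TPM and Col2a1 at most 1.56 TPM in any library. Lpl, with 143 TPM in DMSO, carried most of the adipocyte sum, while Plin1 was at 0 and Adipoq at most 0.119 TPM. Fibroblast markers in AEG 3482, at 8535 to 9473 TPM, overlapped the DMSO range of 9388 to 10761 TPM only at its lower end.

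The genes whose level over the 9 group means was most like that of Acta2 were taken from 10210 genes with at least 5 TPM in 1 group, by Pearson r of mean log2(TPM + 1). The highest outside the panel were Itih5 (r = 0.994), Adamtsl3 (0.994), Ednra (0.992), Palld (0.992) and Fst (0.992). Itih5 had 8.68 TPM in DMSO, 0.923 TPM in AEG 3482 and 0.564 TPM in Cardamonin. Palld, which encodes palladin of stress fibres, had 63.3, 26.3 and 18.3 TPM in the same groups, and Ednra, the endothelin A receptor, 23.6, 6.54 and 5.19 TPM. Within the panel, r with Acta2 was 0.999 for Myl9, 0.994 for Tagln, 0.983 for Actg2, 0.968 for Tpm1, 0.954 for Cnn1, 0.908 for Tpm2, 0.889 for Vcl, 0.509 for Srf and −0.866 for Myh11. By r among the 10210 genes compared, Myl9 ranked 1, Tagln 2, Actg2 19, Tpm1 82 and Cnn1 172. Tpm2 ranked 492, Vcl 643 and Srf 2629, so many genes outside the panel had an r as high as theirs. The 9 points include Cardamonin and Podofilox, which the choice of Acta2 used. Cardamonin and AEG 3482 lie far from the others, and these values carry no test.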

How the data were processed

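RNA from 30 fibroblast libraries was sequenced after ribodepletion, and the authors deposited 1 table of abundance in TPM for 29861 Ensembl genes. Per the series text, transcripts were quantified with kallisto and summed to genes with tximport, and the authors tested differences with DESeq2. Per the submitters' processing notes the kallisto version was 0.43.1 and the build mm10. The TPM of a library summed to 927024 to 937134. TPM corrects for transcript length and is a share of the library, so a large rise elsewhere lowers every other value, and read depth cannot be recovered from it.

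Symbols were taken from GENCODE M21, which matched 29426 of the genes. Groups follow the sample titles. Genes that reached 1 TPM in 3 or more libraries entered limma 3.58.1 in R 4.3.3 on log2(TPM + 1), with 9 group means fitted over all 30 libraries, an intensity trend in the moderated variance and Benjamini-Hochberg adjustment over 13644 genes within a comparison. The series text gives 5 DMSO replicates and the labels give 6, all of which were used. No pair of libraries had identical values. The labels do not tie replicate numbers to shared cultures, and same-numbered libraries of different groups had a median correlation of deviations of 0.00799, so they were not treated as pairs.

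The contractile genes, the gene lists and the marker lists were chosen with earlier results of these data known. From each list the genes named are up to 4 with the largest called change in the 6 tested compounds and up to 4 in Cardamonin or Podofilox, plus all actins and the coactivators. Some genes and 1 list that this rule takes in are not reported here. The genes most like Acta2 are the 5 with the highest r. Alternatives were other pseudocounts (0.1 and 5), filters, scalings, variance models, subsets of libraries, a replicate block and an exact permutation test. The fitting code was tested on simulated data.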

Additional observations from a re-analysis of the deposited data

Results flagged for a closer look

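In each group of 4 or more libraries, which here means DMSO alone, the gap between an extreme library and its nearest neighbour was compared with the range of the group for 52 genes. Chance gives such a gap in about 1 of 20 groups. None of the 10 contractile genes had one. For Ankrd1, the lowest DMSO library was replicate 1 with 0.303 TPM, where the next had 1.09 TPM and the highest 1.55 TPM. For Actc1, the highest DMSO library was replicate 5 with 0.0624 TPM, while the other 5 were listed at 0.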

How the results depend on the processing

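Of 54 tested calls of contractile genes, 14 changed under at least 1 alternative and none of the called changes reversed its sign. The falls of 7 of the 8 genes counted in AEG 3482 passed under every alternative run, with log2 fold changes of Acta2 between −5.38 and −4.54. The exact permutation test of 3 against 6 libraries can give no p below 0.0119. The counts that follow run over the 9 tested contractile genes. They include Cnn1, which passed the minimum only through groups where it was high. Over the 8 genes without Cnn1, BerberineA had 2 lower and 1 higher, and Clofilium tosylate had 4 lower. In Dihydrorotenone the number of genes called was 1, and it was 2 with a pseudocount of 5, 0 when only the compound and DMSO were fitted, and 0 to 2 when single libraries were left out, with 0 without Dihydrorotenone replicate 2 and 2 without DMSO replicate 4. In BerberineA it was 4, and it was 2 with the compound and DMSO alone and 2 to 4 without single libraries, lowest without BerberineA replicate 1 or 2. In Clofilium tosylate it was 5, and it was 3 with a mean of at least 5 TPM, which leaves out Cnn1 and Actg2, 3 with the compound and DMSO alone, and 3 to 5 without single libraries, lowest without Clofilium tosylate replicate 3. Apart from these, the cause of a changed call was not tested. With the replicate block, where numbers name libraries only, Srf in AEG 3482 passed as higher (0.21, limma adjusted p = 0.0106) and Tpm2 in BerberineA (0.26, adjusted p = 0.00895). Tpm2 in Antimycin A (−0.11, adjusted p = 0.206) and Diphenyleneiodonium Cl (−0.16, adjusted p = 0.0920) and Cnn1 in BerberineA (−0.33, adjusted p = 0.104) and Clofilium tosylate (−0.34, adjusted p = 0.0786) no longer passed. Other scalings moved the share of higher calls among all called genes in Dihydrorotenone from 34.4% to 53.8% (median ratio) and 47.4% (quantile). Rescaling without the 20 most abundant genes moved it to 29.8%. In AEG 3482 that share went from 60.7% to 50.8%, 53.9% and 53.5% under the same scalings. The shares of all genes given beside the counts therefore depend on the scaling. Counts for the other gene lists stayed within 1.5 times in 371 of 392 alternatives. The direct contrasts between compounds were fitted in 1 way.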
